A study of Mus musculus with 3 samples.

Results

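The microRNAs described here are those best known for acting on the mRNAs of DNA methyltransferases: miR-29a, miR-29b and miR-29c of the miR-29 family, and miR-148a, miR-148b and miR-152, which share a seed and are called the miR-148 family below. They were taken by name, with both arms of each hairpin, which gave 13 probes of the 1265 microRNA probes on the array, 7 of the miR-29 family and 6 of the miR-148 family. The rule used names and no signal, but it was set with earlier results of these data known. Levels were read on 3 single-colour arrays of mouse intestinal organoids, which are epithelial structures grown in Matrigel from intestinal stem cells with R-spondin 1, EGF and Noggin. The first group was tumour organoids of ApcMin mice treated with 5-Aza-CdR at 1 uM, the second the untreated tumour organoids of ApcMin mice, and the third organoids that wild-type mice gave from their normal intestinal epithelium. ApcMin mice carry a truncating mutation of the tumour suppressor Apc and develop intestinal tumours, and 5-Aza-CdR (decitabine) is a cytidine analogue that traps DNA methyltransferases on DNA and lowers methylation. The sources used here give neither the duration of treatment nor the number of mice or cultures behind each RNA. Each group had 1 array, so the differences below carry no test and no p-value, and an effect of the array cannot be told apart from an effect of the group.

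DNMT1 copies methylation onto the new strand after DNA replication, while DNMT3A and DNMT3B place methylation on unmethylated sites. In human cells miR-29 binds the mRNAs of DNMT3A and DNMT3B and lowers their products, and miR-148a and miR-152 have been described as acting on DNMT1 in the same way. miR-29 is also known for holding down collagens and other matrix genes. The arrays measured microRNAs alone, so neither the methyltransferase mRNAs nor DNA methylation was read here.

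The 3p arms are the strands of these hairpins that do most of the targeting, and their sequences are shown because they set out which members share a target site and which probes are hard to tell apart. They are RefSeq's mature sequences on GRCm38.p6, written from the 5′ end, with the seed (bases 2 to 8), the part that pairs with a target, in capitals. The miR-29 family comes first and the miR-148 family after it.

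miR-29a-3p: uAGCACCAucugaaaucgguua

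miR-29b-3p: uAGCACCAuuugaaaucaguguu

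miR-29c-3p: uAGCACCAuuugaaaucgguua

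miR-148a-3p: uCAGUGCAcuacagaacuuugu

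miR-148b-3p: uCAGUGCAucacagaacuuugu

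miR-152-3p: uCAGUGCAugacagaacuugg

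Each family has 1 seed, and among the 1679 mature names in the RefSeq table no other carried either seed. Counted from the 5′ end, miR-29a-3p and miR-29c-3p differ at 1 of 22 bases (C10U). miR-29a-3p and miR-29b-3p match at 18 of 22 aligned bases and differ by C10U, G18A, U21G and A22U. In the other family miR-148a-3p and miR-148b-3p match at 20 of 22 bases (C9U and U10C), and miR-148a-3p and miR-152-3p at 18 of 21 (C9U, U10G and U20G). With so few differences the probes of a family may share signal, and values of single members are uncertain to that extent. Cross-hybridisation was not tested, as the sequences of the probes were not used here.

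The miR-29 family is encoded at a pair of loci, and this bears on how its probes can be read. Mir29a lies at chr6:31062660-31062747 and Mir29b-1 at chr6:31063023-31063093, both on the minus strand with 275 bases between the hairpins, overlapping no other gene of the RefSeq table. Mir29b-2 lies at chr1:195037040-195037120 and Mir29c at chr1:195037547-195037634, both on the plus strand with 426 bases between them, inside the long non-coding RNA gene A330023F24Rik. miR-29b-3p is made from both loci, so its probe sums them, while miR-29a-3p and miR-29c-3p each come from 1 of them. The miR-148 hairpins stand apart from each other. Mir148a lies at chr6:51269812-51269910 on the minus strand within the gene model Gm38821, Mir148b at chr15:103285125-103285221 on the plus strand within Copz1, and Mir152 at chr11:96850393-96850465 on the plus strand within Copz2. Copz1 and Copz2 encode related subunits of the COPI vesicle coat.

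Signals are given first as the scanner brightness of the spot above the mean of the array's blank spots, in scanner units and with no scaling between arrays. The detection limit was 2 SD of the blanks above their mean. By that limit 914, 959 and 954 of the 1265 probes were detected on the treated tumour, untreated tumour and wild-type arrays, and 408, 410 and 413 also outshone every negative control spot there. The treated array was dimmer as a whole: the first spike control, a kind of RNA usually added in a fixed amount, averaged 4984 ± 339 above blank on it, 7922 ± 801 on the untreated tumour array and 8002 ± 464 on the wild-type array (SD over 8 spots each). Values compared between arrays are therefore normalized log2 values, in which the blank-based background was removed, an offset of 50 was added and the arrays were quantile normalized. A difference below is given with its range over the 7 settings that take the background from the blank spots, the deposited value table included. The per-spot background column of the scanner files gives a further setting, and its value is stated for each bright member.

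Of the 13 probes, 11 were detected in treated tumour organoids, 12 in untreated tumour organoids and 9 in wild-type organoids, 7 of them on all 3 arrays and the remaining 6 on some. The probes brighter than every negative control were the same on all 3 arrays and numbered 4: miR-29a-3p, miR-29b-3p, miR-29c-3p and miR-148a-3p. The other 9 passed that limit on no array.

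miR-29a-3p stood 589 above blank in treated tumour organoids, 722 in untreated tumour organoids and 225 in wild-type organoids. miR-29b-3p stood 356 above blank in treated tumour, 467 in untreated tumour and 191 in wild-type organoids. miR-29c-3p stood 96.8 above blank in treated tumour, 108 in untreated tumour and 47.3 in wild-type organoids. All 3 miR-29 guide strands were thus brighter in both tumour cultures than in wild type, before any scaling.

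miR-148a-3p stood 53.0 above blank in treated tumour organoids, 103 in untreated tumour organoids and 116 in wild-type organoids. It was lowest in the treated culture and differed little between the untreated tumour and wild-type arrays. miR-148b-3p stood 13.5, 18.3 and 14.4 above blank on the treated tumour, untreated tumour and wild-type arrays, the same level as the third kind of negative control spot, which averaged 12.6, 19.9 and 14.4. Its signal can therefore not be told from that of a control. miR-152-3p was not detected in treated tumour organoids (1.34 above blank) and stood 5.20 above blank in untreated tumour and 8.51 in wild-type organoids, below the brightest negative control on each array.

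**Figure D1:**
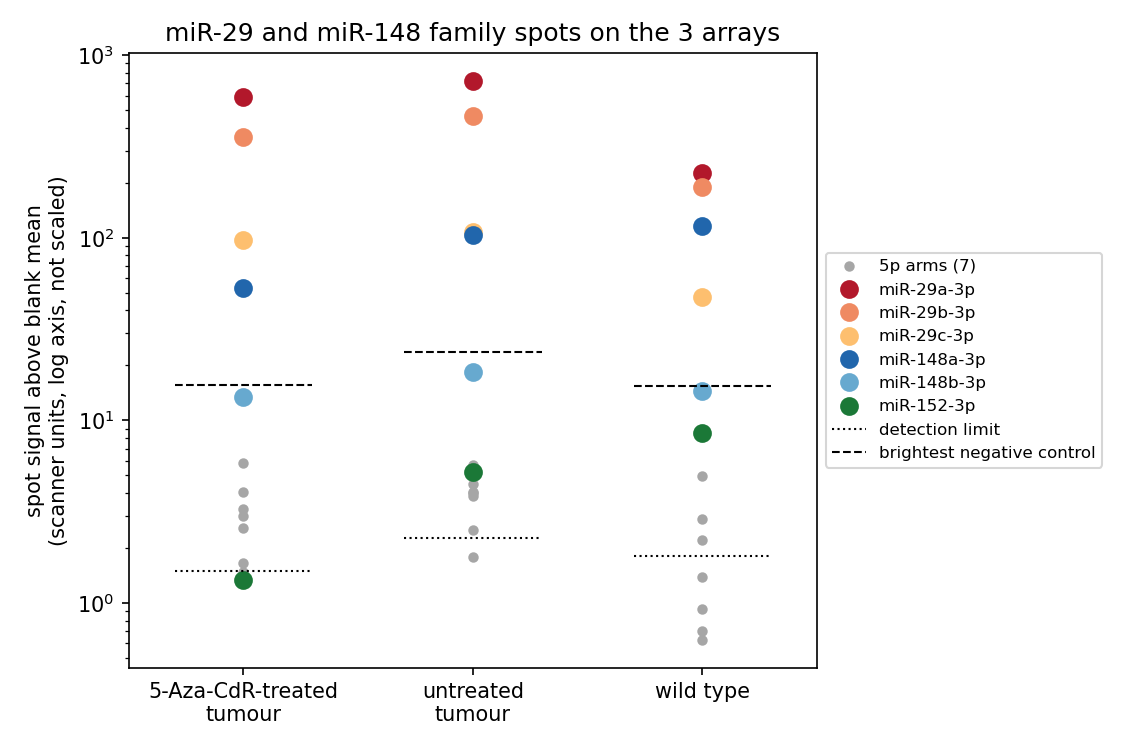
Spot signal above the blank mean (scanner units, log axis, no scaling between arrays) of the 13 probes in 5-Aza-CdR-treated tumour, untreated tumour and wild-type organoids, 1 spot per probe and array. Coloured points are the 6 3p arms, grey points the 7 5p arms, the dotted line the detection limit and the dashed line the brightest negative control: miR-29a-3p, miR-29b-3p, miR-29c-3p and miR-148a-3p lie above the dashed line on every array. Heights of different probes are not comparable as amounts of RNA.

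The 7 5p arms, the passenger strands, were all close to the blanks. They ranged from 1.48 to 5.86 above blank in treated tumour organoids, from 1.79 to 5.68 in untreated tumour organoids and from 0.629 to 4.96 in wild-type organoids, and 6, 6 and 3 of them were detected. miR-29c-5p and miR-148b-5p were the 5p arms detected on all 3 arrays. miR-29a-5p was detected in untreated tumour organoids alone, at 4.45 above blank. miR-29b-1-5p, miR-29b-2-5p and miR-152-5p were detected on both tumour arrays and not in wild type, and miR-148a-5p in treated tumour and wild-type organoids but not in untreated tumour organoids. The normalized log2 differences of the 5p arms tested lay between -0.10 and 0.06 for untreated tumour minus wild type, between -0.03 and 0.14 for treated minus untreated tumour and between -0.04 and 0.16 for treated tumour minus wild type. At these signals the offset of 50 draws any difference towards 0, so no size can be read from them.

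In untreated tumour organoids compared with wild-type organoids, the miR-29 guide strands were higher in every blank-based setting. miR-148a-3p was lower in those settings by an amount that shrank to about 0 with the per-spot column. The normalized log2 level of miR-29a-3p was 9.33 in untreated tumour organoids and 8.32 in wild-type organoids, a difference of 1.01 (0.93 to 1.48) or 2.01-fold. miR-29b-3p was at 8.68 in untreated tumour and 8.10 in wild-type organoids, a difference of 0.58 (0.57 to 1.09), and miR-29c-3p was at 7.07 in untreated tumour and 6.75 in wild-type organoids, a difference of 0.32 (0.32 to 0.75). For scale, the log2 difference of the spike control spots between these arrays had an SD of 0.145. It covers the noise of very bright spots on an array and nothing of the cultures or RNA preparations. Every member was dimmer than those spots, and dim control spots could vary more. The log2 SD of the first kind of negative control was 0.943 on the wild-type and 0.548 on the untreated tumour array. That of the third, brighter kind was 0.094 and 0.161.

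miR-29a-3p was the 1 member of 13 that was at least 2-fold higher in untreated tumour organoids, and it stood at the threshold itself; 1.25% of the 1040 probes tested were at least 2-fold higher. No member was at least 2-fold lower, where 1.35% of probes were. Among the 386 probes brighter than the negative controls on both arrays, miR-29a-3p ranked 13 from the highest, miR-29b-3p 32 and miR-29c-3p 72. With the per-spot background column the difference of miR-29a-3p was -0.64, the opposite sign, while miR-29b-3p was at 0.49 and miR-29c-3p at 0.15. That column follows its own spot (r = 0.99 on the log scale across probes on the untreated tumour array) and read 824 at the miR-29a-3p spot of untreated tumour organoids, above the spot's own brightness of 751. It read 226 at the same spot of the wild-type array.

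The level of miR-148a-3p was 7.04 in untreated tumour organoids and 7.45 in wild-type organoids, a difference of -0.41 (-0.61 to -0.10), and it ranked 52 from the lowest of the same 386 probes. Scaled to the spike controls the difference was -0.10, less than the spike spot SD, with all probes at a median of 0.067, and with the per-spot column it was -0.001. Unscaled, the signal in untreated tumour organoids was 0.890 of that in wild type. For miR-148b-3p the difference was -0.04 (-0.18 to 0.08), with no settled direction. miR-152-3p was detected on both arrays with a difference of -0.14 (-1.24 to -0.07). The lower end came from plain subtraction of the blank mean, which does not compress dim signals, and the per-spot column gave 0.03. Over all 13 members, of which 5 passed the detection limit on 1 of the arrays only, 9 were higher and 4 lower in untreated tumour organoids, with a median difference of 0.03, beside a median of 0.003 over all 1040 probes. Of those 1040 probes 540 were higher. The members' count includes the 5p arms, whose signals near the blanks give no reliable direction. The 3 miR-29 3p arms had a median of 0.58. Of the miR-148 family only miR-148a-3p was bright enough for a direction to be read.

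Within the same arrays, miR-29a-3p and miR-148a-3p thus differed in their tumour-to-wild-type ratio. The log2 difference of miR-29a-3p exceeded that of miR-148a-3p by 1.41 (1.41 to 1.85), and the unscaled ratio of ratios, which no single factor per array can alter, was 3.61-fold. In the blank-based settings the members of the miR-29 family differed from one another by less: miR-29a-3p exceeded miR-29b-3p by 0.43 (0.37 to 0.45) and miR-29c-3p by 0.68 (0.49 to 0.81). Such contrasts show unequal differences and say nothing of which member stayed the same. With the per-spot column the first contrast was -0.64. Those of miR-29a-3p with miR-29b-3p and miR-29c-3p were -1.13 and -0.79, also of the opposite sign and no smaller.

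**Figure D2:**
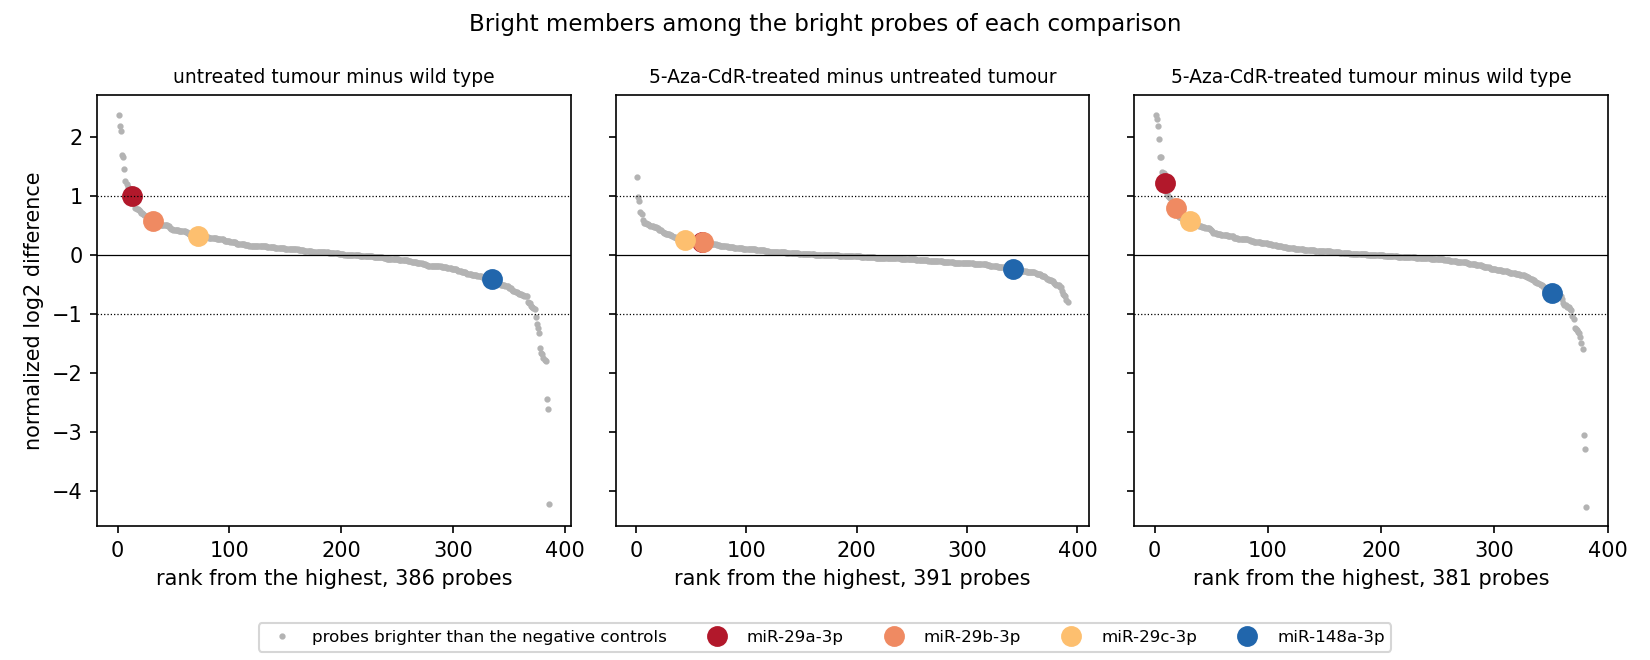
Normalized log2 difference (y axis) of the probes brighter than the negative controls on both arrays of a comparison, ordered from the highest (x axis, rank), for untreated tumour minus wild type, treated minus untreated tumour and treated tumour minus wild type. Coloured points are the bright miR-29 and miR-148 members and dotted lines mark 2-fold: miR-29a-3p lies on or above the upper line in both comparisons with wild type, and no member reaches a line in the comparison of the tumour cultures.

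Treated and untreated tumour organoids differed little in these microRNAs. No member was 2-fold different in either direction, as was the case for nearly all probes: 0.0985% of 1015 probes were at least 2-fold higher after 5-Aza-CdR and 0 lower. The normalized log2 levels were 9.55 in treated and 9.33 in untreated tumour organoids for miR-29a-3p, a difference of 0.22 (0.11 to 0.36). They were 8.90 in treated and 8.68 in untreated tumour for miR-29b-3p, a difference of 0.22 (0.01 to 0.26), and 7.33 in treated and 7.07 in untreated tumour for miR-29c-3p, a difference of 0.26 (0.24 to 0.39). The SD of the spike control spots in this comparison was 0.157. All 3 normalized differences were below 2 such SDs, while the upper ends of the ranges of miR-29a-3p and miR-29c-3p were above.

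These directions rest on scaling. Unscaled, the treated signals were 0.815, 0.762 and 0.897 of the untreated ones for miR-29a-3p, miR-29b-3p and miR-29c-3p, that is lower in treated organoids, while relative to the spike controls they were 1.30, 1.22 and 1.43 times as high. In the deposited value table, where the median of all probes was -0.26 in this comparison, miR-29b-3p stood at 0.01 and so above that median. With the per-spot column miR-29c-3p was at 0.11, miR-29a-3p at 1.24 and miR-29b-3p at -1.15, the last 2 more than 2-fold in opposite directions.

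miR-148a-3p was the bright member that was lower after treatment, with levels of 6.80 in treated and 7.04 in untreated tumour organoids and a difference of -0.24 (-0.56 to -0.16). It ranked 50 from the lowest of 391 bright probes, while miR-29c-3p, miR-29a-3p and miR-29b-3p ranked 44, 60 and 61 from the highest. Its unscaled signal in treated organoids was 0.514 of that in untreated ones, and 0.820 relative to the spike controls, so the direction was the same with and without scaling. With the per-spot column the difference was -0.09. The log2 difference of miR-29a-3p exceeded that of miR-148a-3p by 0.46 (0.46 to 0.67), an unscaled ratio of ratios of 1.59. The difference of miR-148b-3p was 0.04 (-0.05 to 0.16). miR-152-3p was detected in untreated organoids alone, below the brightest negative control. The lowest detected level of the treated array put it at least 1.03-fold lower in treated organoids, a bound smaller than the spike spot SD. Over all 13 members, of which 3 were detected on 1 of these arrays only, 8 were higher and 5 lower in treated organoids, with a median of 0.04 beside -0.006 for all 1015 probes. Of those 1015 probes 453 were higher.

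Treated tumour organoids compared with wild-type organoids showed the same members on the same sides. In normalized values the 4 bright members differed by more here than between untreated tumour and wild type, but unscaled the ratios of miR-29a-3p, miR-29b-3p and miR-29c-3p were 2.62, 1.86 and 2.05 for treated tumour over wild type and 3.21, 2.45 and 2.28 for untreated tumour over wild type. This comparison shares an array with each of the others, so it adds no separate evidence. miR-29a-3p was at 9.55 in treated tumour and 8.32 in wild-type organoids, a difference of 1.23 (1.23 to 1.83) or 2.34-fold. miR-29b-3p differed by 0.79 (0.77 to 1.34), miR-29c-3p by 0.58 (0.58 to 1.02) and miR-148a-3p by -0.64 (-1.17 to -0.28). miR-29a-3p was again the 1 member at least 2-fold higher, of 12 tested, where 1.27% of 1027 probes were, and no member was 2-fold lower, where 1.36% were. It ranked 9 from the highest of 381 bright probes, with miR-29b-3p at 19 and miR-29c-3p at 31, and miR-148a-3p ranked 31 from the lowest. With the per-spot column miR-29a-3p was at 0.60, short of 2-fold, miR-29b-3p at -0.66, miR-29c-3p at 0.26 and miR-148a-3p at -0.09. miR-152-3p, not detected in treated tumour organoids, was at least 1.14-fold lower there by the same kind of bound, but at 0.02 with the per-spot column. miR-152-5p stood 5.86 above blank in treated tumour organoids and was not detected in wild-type organoids (0.924). The arms of 1 hairpin thus stood on opposite sides at signals near the blanks. At a threshold of 1.5-fold the members past it were miR-29a-3p and miR-29b-3p on the higher side, where 3.31% of probes were, and miR-148a-3p on the lower side, where 3.89% were.

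**Figure D3:**
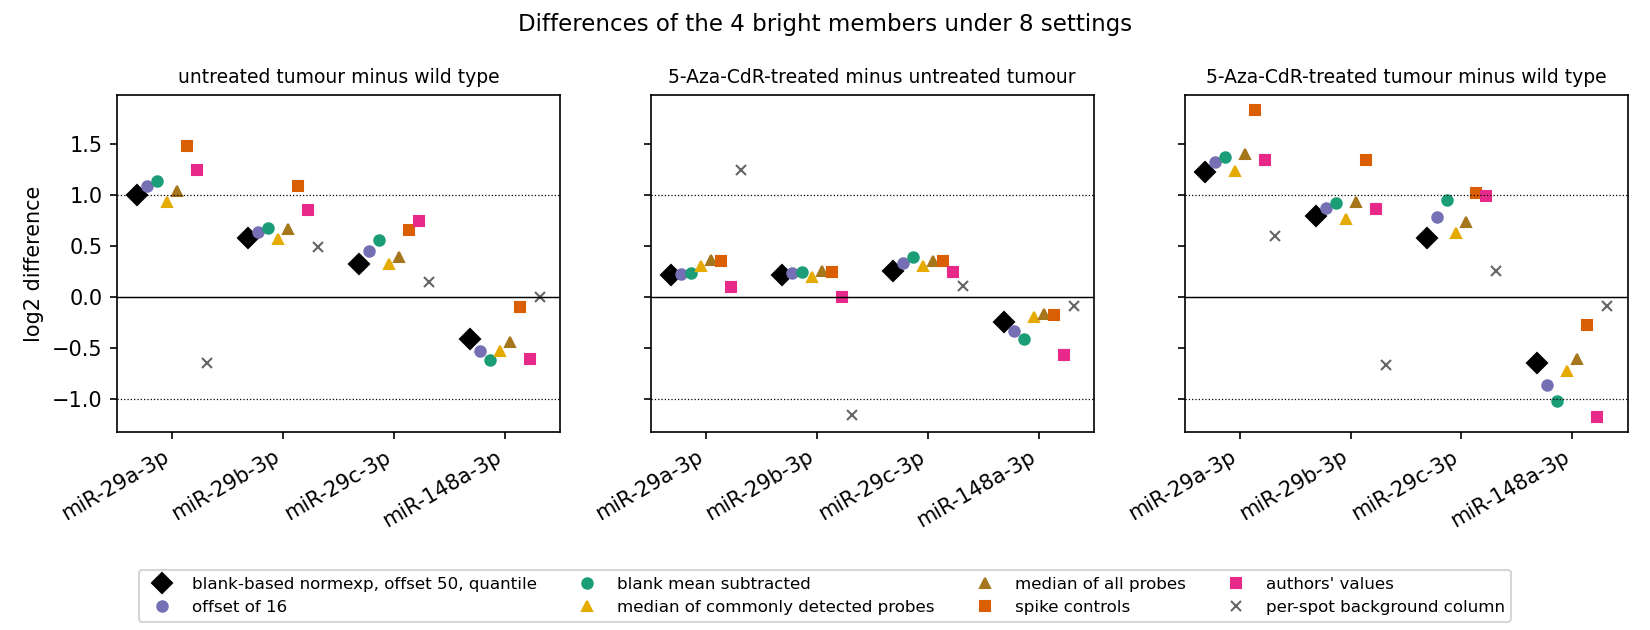
Log2 difference (y axis) of miR-29a-3p, miR-29b-3p, miR-29c-3p and miR-148a-3p in untreated tumour minus wild type, treated minus untreated tumour and treated tumour minus wild type, each point being 1 of 8 ways to process the same arrays. The miR-29 members lie above 0 and miR-148a-3p below 0 in all blank-based settings, and the crosses of the per-spot background column depart most for miR-29a-3p and miR-29b-3p, down to -1.15. Dotted lines mark 2-fold.

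The probes most like miR-29a-3p were sought among 371 others brighter than the negative controls on all 3 arrays, by the distance between their pairs of log2 differences (untreated tumour minus wild type and treated minus untreated tumour). The nearest was miR-182-5p, at a distance of 0.094, with differences of 0.91 and 0.21. miR-96-5p (0.76 and 0.28) and miR-24-3p (0.90 and -0.05) followed at 0.256 and 0.289. Nearest to miR-148a-3p were miR-5107-5p, miR-3107-3p and miR-211-3p, at 0.040, 0.047 and 0.096. A likeness over 3 arrays, with 1 array common to both differences, is a description of those arrays.

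A list of 11 further microRNAs described as acting on DNA methyltransferase mRNAs was read beside the members. Its median was -0.05 in untreated tumour minus wild type, with 3 probes higher and 8 lower, and 0.03 in treated minus untreated tumour, with 7 higher and 4 lower, and none was 2-fold different in either comparison. Brighter than the negative controls on any array were 4 of them, with medians of -0.21 in untreated tumour minus wild type and 0.14 in treated minus untreated tumour; the offset draws the differences of the others towards 0. miR-342-3p, reported to act on DNMT1 in human colorectal cells, stood 35.8 above blank in treated tumour, 46.1 in untreated tumour and 12.3 in wild-type organoids, with log2 differences of 0.13 for treated minus untreated tumour and 0.43 for untreated tumour minus wild type. It was thus on the same side as miR-29, but it did not pass the negative controls in wild-type organoids. Its difference in untreated tumour minus wild type ran from 0.12 to 1.47 over the 8 settings. miR-185-5p (-0.34), miR-101b-3p (-0.18) and miR-221-3p (-0.23) were on the other side in untreated tumour minus wild type, and the last of these was at 0.59 in treated minus untreated tumour. With spike scaling miR-101b-3p and miR-221-3p turned to 0.01 and 0.11 in untreated tumour minus wild type.

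A short list of 3 microRNAs described as acting on the TET enzymes, which start the removal of DNA methylation, was also read, and all 3 were bright. miR-29 has itself been described as acting on TET mRNAs and is not counted in it. In untreated tumour minus wild type miR-22-3p was at -0.33, miR-26a-5p at -0.61 and miR-26b-5p at -0.21, the first and last of which turned to 0.03 and 0.12 with spike scaling. In treated minus untreated tumour they were at 1.33, 0.31 and 0.10. miR-22-3p, at 212 above blank in treated and 90.4 in untreated tumour organoids, was the 1 probe of the array past 2-fold there.

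Markers of cell types were read for the whole of each list, since in bulk RNA fewer cells of a type and less RNA per cell cannot be told apart. All 10 epithelial microRNAs, the miR-200 family among them, were brighter than the negative controls on each array. Their summed signal above blank, not scaled between arrays, was 4949 in treated tumour, 7371 in untreated tumour and 11413 in wild-type organoids. Epithelial microRNAs were thus present on all 3 arrays, which does not measure the share of epithelial cells. miR-192-5p, miR-194-5p and miR-215-5p carried the lower tumour sums, with 736 in treated tumour, 1710 in untreated tumour and 6934 in wild-type organoids. The other 7, a division made after their values were seen, summed to 4213 in treated tumour, 5661 in untreated tumour and 4479 in wild-type organoids. Unscaled, 6 of these 7 were brighter in untreated tumour than in wild type. In normalized values 3 of the whole epithelial list of 10 were higher and 7 lower in untreated tumour minus wild type (median -0.31). The counts were the same in treated tumour minus wild type (median -0.11). Of 8 smooth muscle and fibroblast microRNAs 3, 4 and 3 passed the negative controls on the treated tumour, untreated tumour and wild-type arrays, with sums of 115, 134 and 110. miR-214-3p and miR-133a-3p passed on all 3 arrays, while the defining miR-143-3p and miR-145a-5p passed on none. miR-125b-5p stood 45.8 above blank in treated tumour, 31.7 in untreated tumour and 9.7 in wild-type organoids, where it did not pass the negative controls. The list as a whole had no such direction. In normalized values 3 of its probes were higher and 5 lower in untreated tumour minus wild type (median -0.04). In treated tumour minus wild type 2 were higher and 6 lower. Of 7 blood cell microRNAs 2, 1 and 1 passed, with sums of 46.8, 82.4 and 37.2. miR-223-3p passed on all 3 arrays, at 18.2 above blank in treated tumour, 41.9 in untreated tumour and 20.7 in wild-type organoids, and miR-155-5p passed in treated tumour organoids alone. miR-150-5p was detected on all 3 arrays without passing, at 11.2 in treated tumour, 19.7 in untreated tumour and 7.03 in wild-type organoids. miR-142-5p was detected in untreated tumour and miR-451a in wild-type organoids alone, and miR-142-3p and miR-144-3p on no array. In normalized values 4 of the 5 blood cell probes tested were higher and 1 lower in untreated tumour minus wild type (median 0.15). In treated tumour minus wild type 2 were higher and 2 lower. Neither endothelial probe passed on any array, but miR-126-3p was detected on all 3 and miR-126-5p in wild-type organoids alone. The part of cell composition in the differences above was not tested.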

How the data were processed

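RNA from 3 organoid cultures, 1 per group by sample title, was labelled with Hy5 and hybridised to single-colour arrays, per the labels' protocols. Per the file headers, the scanner files hold spot medians as intensity, without background subtraction. The authors' deposited value table holds an intensity that the values show to be the spot median less the trimmed blank mean, divided by 1 factor per array to a median of 25, on a linear scale. The sources used here do not give the platform, scanner software or microRNA release.

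In limma 3.58.1 (R 4.3.3), normexp was fitted robustly on 1664 blank spots with an offset of 50, and 1265 probes were quantile normalized and put on the log2 scale. Probes marked bad (2, wild-type array) were left out. The detection limit was 2 SD above the mean of the blanks, after trimming 5% of them from each end. Probes past that limit on either array of a comparison were counted at 2-fold, with no test. Bounds used the lowest detected level of the other array. The steps were tested on simulated data. The number of arrays limits the precision.

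Members, lists, processing and alternatives were chosen with earlier results of these data known. Every member probe is reported. Other microRNAs named are the 3 nearest probes to miR-29a-3p and to miR-148a-3p, the members of the methyltransferase and TET lists brighter than the negative controls, and cell type markers picked after their values were seen. The 11 alternatives changed the offset, background, scaling, detection limit, filter, value source or fold threshold. Sequences and loci are RefSeq's (GRCm38.p6). Python 3.11.15, numpy 2.4.6, pandas 2.3.3 and matplotlib 3.10.9 did the rest.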

Additional observations from a re-analysis of the deposited data

How the results depend on the processing

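With 1 array per group the values below show what processing does and nothing of biological spread. No paired analysis was possible because each group has 1 array. The 9 of 13 members that never exceeded the negative controls have differences that an offset of 50 draws towards 0. In untreated tumour minus wild type the count of members at least 2-fold different was 1. It was 6 with the blank mean subtracted (18.6% of all probes tested were then 2-fold different), 0 with the per-spot column (4.52%), 0 with the median of commonly detected probes (2.21%), 2 with spike controls (4.23%) and 2 in the authors' deposited table (10.3%). In treated minus untreated tumour the count of 0 became 3 with the blank mean subtracted (132 of 1015 probes), 2 with the per-spot column (5.62%) and 1 in the authors' deposited table (43 of 860 probes). In treated tumour minus wild type the count of 1 became 5 with the blank mean subtracted (21.7%), 0 with the per-spot column (2.53%), 3 with spike controls (4.77%), 2 in the authors' deposited table (11.8%) and 3 at 1.5-fold (7.21%). The members' median log2 difference in these comparisons, 0.034, 0.037 and 0.026, was 0.557, 0.195 and 0.641 with the blank mean subtracted and 0.451, 0.219 and 0.689 over the members brighter than the negative controls. In the authors' deposited table it was 0.454 for untreated tumour minus wild type and 0.154 for treated tumour minus wild type, where the median of all probes was 0.10 and -0.14. That table has no value for some of the dim members. Its counts above covered 8, 10 and 8 members, in the order of the comparisons. Both of its medians are over 8 members and so not over the same members as the main setting. miR-29a-3p in untreated tumour minus wild type reversed to -0.64 with the per-spot column. Of 254 values of single members under alternatives it was the 1 counted as reversed. Only a normalized difference of at least 2-fold could be so counted, so other changes of sign are not. With the per-spot column miR-29b-3p, for example, turned to -1.15 in treated minus untreated tumour and -0.66 in treated tumour minus wild type. Of the rest, 175 moved by less than the spread of the spike control spots, which outshone every member, and 78 by more. The cause was not tested.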
